A study of Mus musculus with 2 samples.

Results

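Wnt signalling genes were examined in mouse epidermis with and without the calcium-sensing receptor (gene symbol Casr) in keratinocytes. The set held 40 genes, chosen by name as Wnt ligands, receptors, antagonists, transcription factors and targets, among 18036 genes on the array. It had probes for 38 of these genes, 57 probes among the 25697 in all. The rule of choice uses gene names and no measured value, although the list was drawn up with earlier results of these data known. Control mice were littermates of the genotype CaSR fl/fl, and knockout mice carried the same floxed alleles together with a K14-driven Cre (keratin 14 promoter), so that deletion was directed to basal keratinocytes and their descendants. All mice were of the strain C57BL6 and were taken at postnatal day 5. Each genotype was represented by 1 Illumina bead array that held the pooled RNA of 3 mice, giving 1 control sample (CON) and 1 knockout sample (KO). There were no replicates, no value carries a replicate error, and no test was made. With 2 arrays in all, precision is limited by their number.

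Wnt proteins are secreted lipid-modified ligands that bind Frizzled receptors and the co-receptors Lrp5 and Lrp6. In the absence of a ligand, a complex built on Axin and Apc lets the kinase Gsk3b mark beta-catenin for destruction, and after ligand binding beta-catenin accumulates and acts with transcription factors of the TCF/LEF family on target genes. In skin the pathway is known for the induction of hair follicles and for the growth of the hair shaft.

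The normalised signal of the Casr probe, listed under the older name Gprc2a, was 122.9 in CON (detection p-value 0.891) and 148.2 in KO (detection p-value 0.0639). Both values lay within background, and the probe gives no check of the genotype labels. All 7 keratinocyte markers were detected in both samples, 3 with a log2 ratio above and 4 below 0. The ratios ran from -0.49 (Ivl) to 0.22 (Krt10), with Krt5 at 19907.2 in CON and 16377.4 in KO and Krt14 at 17417.5 and 15114.1. Of 8 dermal fibroblast markers 4 were detected, with a summed signal of 2255.8 in CON and 2356.1 in KO, and Col1a2, Col3a1, Lum and Pdgfra were not above background. The detected fibroblast markers were Fbln1, Fbln2, Dcn (519.2 and 502.7) and Col1a1 (169.7 and 169.3). Of 6 dermal papilla markers 1 was detected, and of 5 endothelium markers 1. The 4 detected Langerhans and myeloid markers lay above 0 on their brightest probes (median log2 ratio 0.13). Other probes of Cd207, Cd74 and Csf1r lay below 0. The 4 detected T cell markers lay below 0 (median -0.10), and of 4 detected melanocyte markers 2 lay above and 2 below 0. The 8 detected of 9 hair follicle keratinocyte markers were split, with 3 above and 5 below 0. Of those above 0, Dsg4 was detected in KO only, which set its direction. Krt71, Krt31, Krt27 and Krt35 were lower in KO by log2 ratios of -0.40, -0.32, -0.21 and -0.18, and Msx2 by -0.06. Shh (196.1 in CON and 255.7 in KO) and Hoxc13 (247.2 and 314.7) were dim and were higher by 0.38 and 0.35. The summed signal was 22010 in CON and 18151 in KO. Most of it came from Krt71 (9571.8 in CON and 7252.6 in KO) and Krt27 (8882.6 and 7672.0). In pooled tissue, fewer cells of a type and less RNA per cell cannot be told apart.

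A probe was called detected at a detection p-value of at most 0.01, and a gene was represented by its brightest detected probe. By this rule 28 of the 38 Wnt genes with a probe were detected, 25 of them in both samples and 3 in KO only. Among all 18036 genes on the array, 8564 were detected, 7934 of them in both samples. The 3 detected in KO only (Wnt7a, Lrp6 and Myc) have ratios above 0 by the rule itself, so their direction is no result. The signals of the 28 genes were close to equal in both samples. The log2 ratios (KO over CON, here and below) ran from -0.20 to 0.25, with a median of -0.004, beside a median of 0.01 over all 8564 detected genes. The number of Wnt genes at least 1.5-fold apart was 0 in either direction, where 0.187% of all detected genes were at least 1.5-fold higher and 0.234% at least 1.5-fold lower in KO. At 1.2-fold it was also 0 in either direction, where 2.91% of all detected genes were higher and 2.95% lower. At 1.1-fold, a limit added after these counts were seen, 2 Wnt genes were higher (Tcf7l2 and Wnt10a) and 2 were lower (Sfrp1 and Porcn), where 14.2% of all detected genes were higher and 13.6% lower. These shares are close to or below the background and are no result about the set.

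The direction of some of the small ratios depended on the scaling. A log2 ratio below 0 was found for 16 of the 28 Wnt genes, where 47.5% of all detected genes lay below 0. When the intensities before normalisation were scaled to equal medians instead, 8 of the 28 lay below 0, where 35.0% of all genes did. As a scale of precision within the arrays, the SD of log2 ratios among probes of one gene, pooled across 1840 genes, was 0.11. At least 2 such SDs from 0, a distance of 1.17-fold, lay 1 Wnt gene (Tcf7l2), where 9.56% of all detected genes did. Differences between pools of mice or between hybridisations are not part of this SD.

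**Figure D1:**
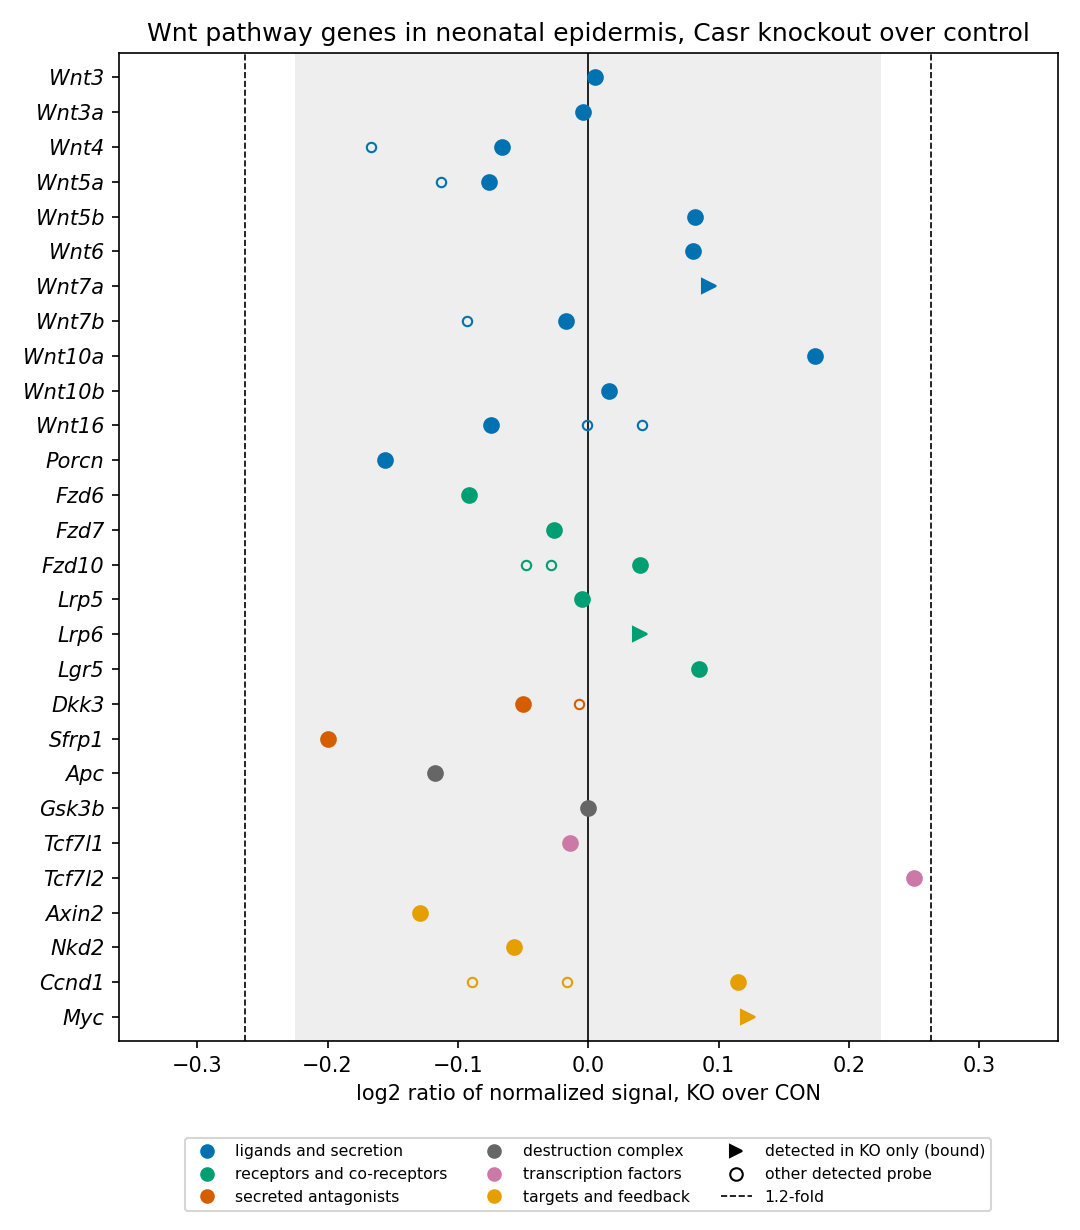
Log2 ratio of normalised signal (KO over CON, x axis) for the 28 detected Wnt genes, coloured by role. Filled points are the brightest detected probe, open points other detected probes, and triangles bounds for genes detected in KO only; the grey band spans 2 between-probe SDs either side of 0 and dashed lines mark 1.2-fold. All 28 genes lie inside the dashed lines, and Tcf7l2 at 0.25 alone lies outside the band.

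**Figure D2:**
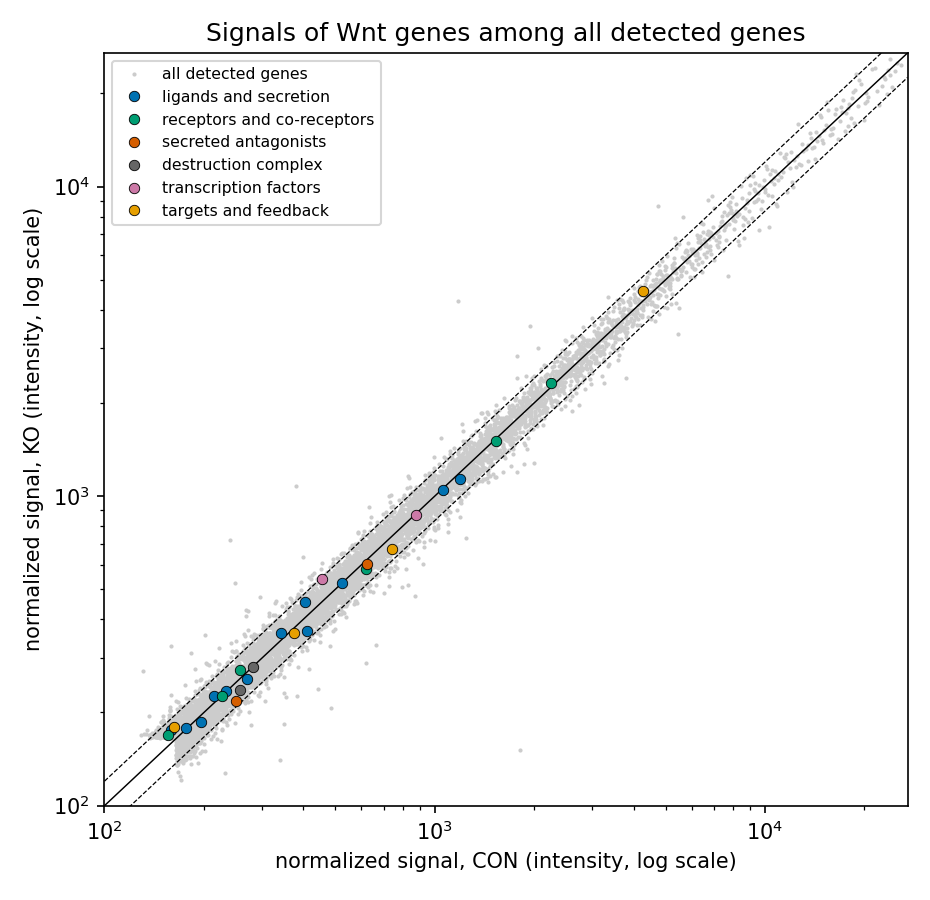
Normalised signal in KO (y axis) against CON (x axis), both intensities on log scales, for all 8564 detected genes (grey) and the 28 detected Wnt genes (coloured by role). The solid line marks equal signals and dashed lines 1.2-fold, and all 28 Wnt genes lie between the dashed lines.

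All 12 genes of ligands and ligand secretion were detected, 11 of them in both samples. Their log2 ratios ran from -0.16 to 0.17 with a median of 0.001, and 6 lay above and 6 below 0. Wnt10a, a ligand required for normal tooth and hair development, had the highest ratio among the ligands. Its signal was 403.3 in CON and 455.0 in KO (1.13-fold higher), and before normalisation it was 471.9 and 576.5. Wnt6, the neighbour of Wnt10a in the RefSeq gene order of mouse chromosome 1, was also higher in KO, with 342.0 in CON and 361.5 in KO (log2 ratio 0.08). Wnt10b, a related ligand of hair follicle placodes, stood near the detection limit with 176.6 and 178.6. The ratios of Wnt10a, Wnt6 and Wnt10b stayed above 0 under every alternative tried. Here and below, not every alternative could change a ratio. For a gene with 1 detected probe that was above background in both samples, only background correction, median scaling and loess centring could. The Wnt10a ratio stayed under 1.2-fold under every alternative, with a highest log2 value of 0.25.

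Wnt4 and Wnt7b each had a pair of detected probes that were lower in KO. The brightest Wnt4 probe gave 1190.2 in CON and 1137.0 in KO, a log2 ratio of -0.07, and the other gave 613.9 and 546.9, a log2 ratio of -0.17. For Wnt7b the signals were 1059.0 and 1046.7 on the brightest probe (-0.02) and 333.2 and 312.4 on the other (-0.09). Under median scaling the brightest probes of both genes turned above 0. Wnt5a, a ligand best known for signalling without beta-catenin, had 270.5 in CON and 256.6 in KO (-0.08), and its dim second probe, detected in CON only, had a bound of -0.11. Wnt5a stayed below 0 under every alternative.

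Wnt3 and Wnt3a, ligands that act through beta-catenin, had nearly equal signals. Wnt3 had 233.8 in CON and 234.7 in KO, and Wnt3a had 525.2 and 523.6. Wnt5b was slightly higher in KO with 214.2 and 226.7 (0.08). Wnt7a was above background in KO only, with 175.8 against 159.3 in CON (detection p-value 0.0238). Its direction was set by the detection rule, and its bound was 1.0661-fold. With background-corrected values its log2 ratio was 0.30, past 1.2-fold, where 10.5% of all detected genes were at least 1.2-fold higher. Wnt16 had 3 detected probes with log2 ratios of -0.07, -0.001 and 0.04, and thus no common direction.

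Porcn, the acyltransferase that attaches the lipid needed for Wnt secretion, had 409.0 in CON and 367.1 in KO on its detected probe, 1.11-fold lower in KO. Its log2 ratio of -0.16 was the lowest in the ligand group and ranged from -0.22 to -0.10 over the alternatives. A second Porcn probe, annotated to another RefSeq transcript, was not above background in either sample.

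Of 8 receptor and co-receptor genes with a probe 6 were detected, with log2 ratios from -0.09 to 0.09. Fzd10 had 3 detected probes. Its signals were 2251.6 in CON and 2314.0 in KO on the brightest probe (0.04), against log2 ratios of -0.05 and -0.03 on the other probes, so their mean lay on the other side of 0. Fzd7 had 1528.6 and 1501.2 (-0.03, above 0 under median scaling). Fzd6, which in the mouse orients hair follicles through planar polarity, had 618.5 in CON and 580.4 in KO (-0.09), and it was below 0 under every alternative. Fzd1 was not above background, with 139.2 in CON and 144.4 in KO.

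The co-receptor genes gave weak signals. Lrp5 had 226.3 in CON and 225.6 in KO (-0.004, above 0 under median scaling). Lrp6 was above background in KO only, with 169.5 against 155.2 in CON (detection p-value 0.0326). Its direction was set by the detection rule, and its bound was 1.0279-fold. Lgr5, an R-spondin receptor that marks stem cells of the hair follicle, is listed on the array under the older name Gpr49. It had 257.7 in CON and 273.4 in KO (1.06-fold higher) and stayed above 0 under every alternative. The hair follicle keratinocyte markers given above went both ways, and their lower summed signal in KO came mostly from Krt71 and Krt27. Any part of follicle content in the values of Lgr5 and Wnt10a was not tested. Lgr6, a marker of the upper follicle, was not above background with 127.7 in CON and 128.0 in KO, and Lgr4 was not analysed here.

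Secreted antagonists were mostly below the detection limit, and the 2 that were detected had lower signals in KO. Sfrp1, which binds Wnt ligands through a Frizzled-like domain, had 250.0 in CON and 217.7 in KO. It was 1.15-fold lower in KO (log2 ratio -0.20), the lowest value in the set. Its direction held under every alternative, and with background-corrected values it was 1.34-fold lower (log2 ratio -0.43), where 10.2% of all detected genes were at least 1.2-fold lower. Dkk3, a divergent member of the Dickkopf family, had 624.6 in CON and 603.2 in KO on its brightest probe (-0.05) and 460.8 and 458.6 on another (-0.01), and its ratio was 0.002 under median scaling. The Lrp5 and Lrp6 inhibitor genes Dkk1 and Dkk2 were not above background, with 129.1 and 124.0 for Dkk1 and 132.2 and 128.3 for Dkk2 in CON and KO. Sfrp2 was not above background either (131.5 and 136.1). The same held for Wif1 (156.5 and 159.8), which had detection p-values of 0.0301 and 0.0175.

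In the beta-catenin destruction complex, Apc had 256.5 in CON and 236.4 in KO on its detected probe, 1.08-fold lower in KO (log2 ratio -0.12). It was below 0 under every alternative and at -0.24 with background-corrected values. The kinase gene Gsk3b had 280.9 and 280.8, the closest match between the samples among the detected Wnt genes. Axin1 was not analysed here.

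The transcription factor genes were taken by gene ID, since Tcf3 and Tcf4 are older names of Tcf7l1 and Tcf7l2 that now belong to other genes. Tcf7l2, a TCF factor that binds beta-catenin, had 454.5 in CON and 540.5 in KO on its detected probe. It was 1.19-fold higher in KO (log2 ratio 0.25), the highest value in the set, and 6.69% of all detected genes lay at least as far from 0. Before normalisation the signals were 532.8 and 694.6. Under the alternatives its log2 ratio ranged from 0.25 to 0.35, and it passed 1.2-fold with background-corrected values, with median scaling (where 6.56% of all detected genes were at least 1.2-fold higher) and with loess centring (3.58%). The other Tcf7l2 probes were not above background in either sample (137.6 and 141.3, and 130.9 and 130.6), so this difference rests on 1 probe. Tcf7l1, a TCF factor known as a repressor in skin stem cells and listed on the array as Tcf3, had 875.0 in CON and 866.6 in KO (-0.01, above 0 under median scaling). The probe listed as Tcf4 carries the gene ID of a helix-loop-helix factor outside the TCF/LEF family, and its log2 ratio of 0.22 was not counted.

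Lef1 and Tcf7, the other TCF/LEF genes, were not above background. The brighter Lef1 probe gave 147.6 in CON and 160.8 in KO, with detection p-values of 0.0664 and 0.0163. The brighter Tcf7 probe gave 157.5 and 156.9.

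Of 6 target and feedback genes 4 were detected, 2 with a ratio above and 2 below 0. Axin2, a target gene whose product feeds back on the destruction complex, had 740.1 in CON and 676.7 in KO, 1.09-fold lower in KO (log2 ratio -0.13). It was below 0 under every alternative. Nkd2, which encodes a Dishevelled-binding inhibitor, had 375.6 and 361.0 (-0.06). Ccnd1, the gene of cyclin D1, had 4257.5 in CON and 4609.5 in KO on its brightest probe (0.11), but 3365.5 and 3164.3 (-0.09) and 709.1 and 701.1 (-0.02) on its other probes, so that the mean over its probes was 0.003. Myc was above background in KO only, with 179.5 against 162.6 in CON (detection p-value 0.0138). Its direction was set by the detection rule, and its bound was 1.0885-fold. With background-corrected values its log2 ratio was 0.39, also past 1.2-fold. Nkd1 was not above background, with 151.3 in CON and 161.2 in KO. Sp5, a direct target gene of the pathway, had 130.0 in CON and 154.8 in KO with detection p-values of 0.570 and 0.0251, so neither sample passed the detection limit and its signals give no fold.

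At a detection p-value of at most 0.05, Lef1, Nkd1, Sp5, Tcf7 and Wif1 entered the set, which then held 33 genes. Lef1 and Sp5 then passed in KO only, which set their direction, and their bounds were 0.09 for Lef1 and 0.03 for Sp5. Nkd1, Wif1 and Tcf7 then passed in both samples, with log2 ratios of 0.09, 0.03 and -0.01.

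**Figure D3:**
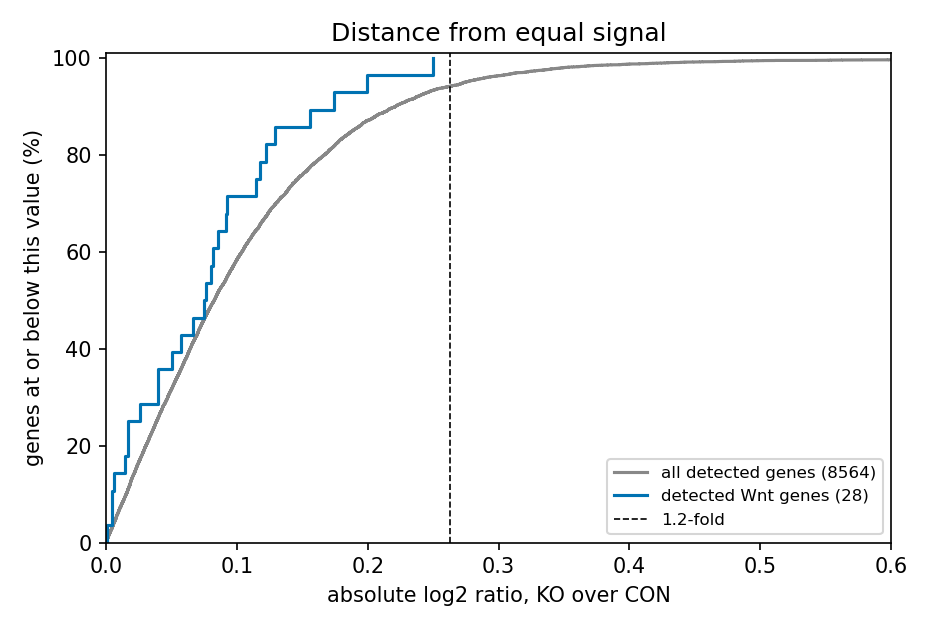
Cumulative share of genes (y axis, percent) at or below a given absolute log2 ratio (x axis) for all 8564 detected genes (grey) and the 28 detected Wnt genes (blue); the dashed line marks 1.2-fold. The median absolute log2 ratio was 0.08 in both, and the Wnt curve ends at 0.25, left of the dashed line.

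The letters that TCF/LEF factors are known to bind were looked up in the promoter windows of RefSeq (build GRCm38.p6), which span 250 bases before to 50 bases after a gene's start. CTTTGAT and CTTTGAA were searched on both strands. A window was matched for 26 of the 40 Wnt genes, 33 windows in all, and 3 of these windows (9.09%) held one of the letter strings, where 8.65% of all 32851 windows did. CTTTGAT was in 3.73% and CTTTGAA in 5.14% of all windows, and some windows held both. The 3 stretches are shown because they are the places in the set where the letters that TCF/LEF factors read stand before the start of a Wnt gene, with the letters in capitals and each written 5′ to 3′ on the gene's strand. They lie at chr2:70474793-70474851 (plus strand) for Sp5, at chr6:119449425-119449483 (minus strand) for Wnt5b and at chr19:30549581-30549639 (minus strand) for Dkk1.
Sp5: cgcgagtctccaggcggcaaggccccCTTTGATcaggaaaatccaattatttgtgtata
Wnt5b: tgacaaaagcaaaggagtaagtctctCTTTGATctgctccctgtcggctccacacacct
Dkk1: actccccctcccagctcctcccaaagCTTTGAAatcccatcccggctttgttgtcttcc
The letters begin 104 bases before the start in Sp5, 71 in Wnt5b and 117 in Dkk1. Of these genes, Wnt5b was detected (log2 ratio 0.08), and Sp5 and Dkk1 were not above background in either sample. A match is a description of the letters and shows no binding. Windows were not used for Apc, Axin1, Ccnd1, Dkk3, Fzd6, Lgr5, Lrp5, Lrp6, Myc, Porcn, Sfrp1, Wnt10a, Wnt5a and Wnt7b.

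Beyond the set, a list of 80 other Wnt pathway genes was described in the same way. It had probes for 74 genes, of which 35 were detected, 17 with a log2 ratio above and 18 below 0, and the median was -0.01. At least 1.2-fold higher in KO was 1 of the 35 and 0 were at least 1.2-fold lower, where 2.91% of all detected genes were higher and 2.95% lower. At 1.1-fold 6 were higher and 8 lower, where 14.2% and 13.6% of all detected genes were. The gene past 1.2-fold was Ctnnb1, which encodes beta-catenin, the partner of the TCF/LEF factors. Its signal was 2491.4 in CON and 3177.1 in KO on the brightest probe (log2 ratio 0.35), and its other probe gave 0.20. The next largest differences were in Tle4, a co-repressor of TCF/LEF factors, and Prickle1, a gene of planar polarity. Tle4 had 911.8 in CON and 1050.5 in KO (0.20, and -0.03 on another probe), and Prickle1 had 382.7 and 439.4 (0.20). The casein kinase gene Csnk1g2, named by the rule for bright probes, had 3873.3 and 3992.6 (0.04).

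**Figure D4:**
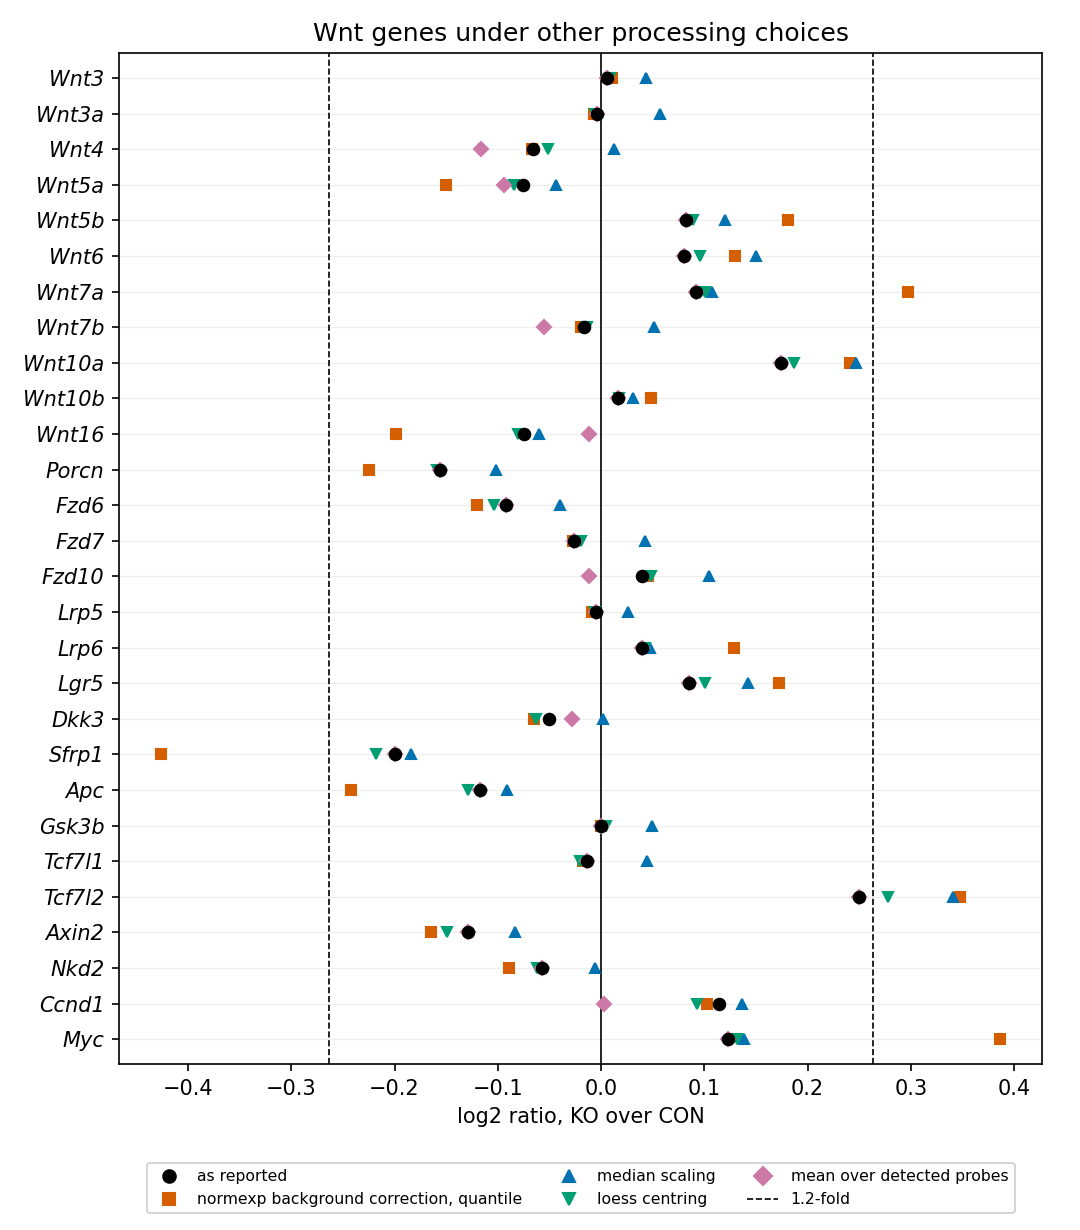
Log2 ratio (KO over CON, x axis) of each detected Wnt gene as reported (black) and under 4 of the 7 other processing choices (coloured symbols), with dashed lines at 1.2-fold. Background correction moved dim genes such as Sfrp1 (-0.43) and Myc (0.39) farthest from their reported values, and median scaling shifted most genes to the right.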

How the data were processed

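Epidermis was lifted from back skin with dispase, and RNA was extracted per mouse, combined from 3 mice per genotype, biotin-labelled and detected on Illumina bead arrays, per the labels' protocols. One sentence there names a VDR knockout group; all other labels name the CaSR knockout and were followed. Arrays were processed with GenomeStudio 2011.1, per the submitters' processing notes. The authors deposited, per the file headers, an intensity and a detection p-value for each probe, before and after normalization. How they normalized is not stated in the labels or headers. Normalized medians were 148.9 in both samples and the lowest intensity was 106.2, so background was not subtracted and dim probes show compressed ratios. The value table equalled the normalized table.

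Probes were named through gene ID, then accession, against RefSeq (GRCm38.p6): 41 of the 57 Wnt probes by gene ID and 16 by accession. Normalized intensities were raised to the lowest detected signal of the array (164.9 in CON and 165.9 in KO) and log2 transformed. Ratios of genes detected in 1 sample are bounds against that floor. Detected members were all named. Of other lists only some genes were named, mostly those with the largest ratios or brightest probes. The members and lists were chosen with earlier results of these data known. Alternatives used limma 3.58.1 (normexp with offset 16, or loess with span 0.3), median scaling, no floor, a detection p-value of 0.05, genes detected in both samples, and probe means. The ratio procedure was tested on simulated data.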

Additional observations from a re-analysis of the deposited data

How the results depend on the processing

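Over 7 alternatives, the median log2 ratio of the detected Wnt genes ran from -0.01 to 0.04, where the median of all genes was 0.05 under median scaling. The count of Wnt genes at least 1.2-fold higher in KO was 3 with normexp background correction (Tcf7l2, Wnt7a and Myc, 10.5% of all genes), 1 with median scaling and 1 with loess centring, against 0 as reported, and 1 was at least 1.2-fold lower with normexp (Sfrp1). Of the 3 with normexp, Wnt7a and Myc were detected in KO only, so the detection rule had set their direction. The count at least 1.1-fold higher, reported as 2, was 6 of 28 with normexp (25.2% of all genes), 5 of 28 with median scaling (25.7%), 4 of 28 without the floor (15.5%) and 4 of 33 at a detection p-value of 0.05 (13.3%). The count at least 1.1-fold lower, also reported as 2, was 6 of 28 with normexp (23.0% of all genes). It was 3 of 28 with loess centring (14.7%) and 1 of 28 with median scaling (8.99%). The count at 1.5-fold was 0 in each direction under every alternative. With normexp, 1.35% of all genes were at least 1.5-fold higher and 1.3% lower, and under the other alternatives at most 0.269% in either direction. At such shares a count of 0 is no result about the set. Signs of 19 Wnt genes held under every alternative that gave them a value and those of 9 turned: 8 under median scaling, of which Gsk3b also turned under loess centring, and Fzd10 with the mean over its probes. Several alternatives return the same ratio for a gene with 1 detected probe above background in both samples. Median scaling raised most ratios, and the detection rule set the sign of genes detected in KO only. A held sign is therefore a limited check of direction. With normexp, Wnt7a, Wnt16, Sfrp1, Apc and Myc moved by more than the between-probe SD of 0.11, and the cause was not tested. No paired analysis was possible because each group had 1 sample, and for the same reason no sample could be left out. The number of arrays and signals near background limit all these values.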
